A study of Mus musculus with 8 samples.

Results

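The genes described here are chaperones of the calnexin and calreticulin families in the endoplasmic reticulum (ER) and their thiol oxidoreductase partners in mouse testis. The 3 germ cell forms, Calr3, Clgn and Pdilt, are set against their widely expressed counterparts Calr, Canx and Pdia3. All were chosen by symbol from the gene-count table, which has 19276 entries. Of the 6 symbols listed, 5 matched an entry. The sixth, Pdilp, matched none, and Pdilt, the testis-expressed protein disulfide isomerase-like gene, is described in its place on the assumption that it was the gene meant.

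RNA was sequenced from the 4 groups of C57BL/6 mice at 6 weeks of age, with 2 libraries in each: RNF17 immunoprecipitates (IP) from testis lysate of animals labelled homozygous RNF17, the same IP from animals labelled heterozygous RNF17, whole testes of homozygous RNF17 animals and whole testes of heterozygous RNF17 animals. RNF17 carries Tudor domains and is made in male germ cells, and the RNF17 1774 antibody was used for the IP. Every group carries the allele, whose nature the labels do not give, and no wild-type testis or mock IP was analysed here. The labels do not state whether replicate libraries were made from different animals, and each p-value therefore reflects library-to-library spread that may be technical.

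Newly made glycoproteins enter the ER with a glucose-tipped sugar chain, which the membrane lectin calnexin (Canx) and its soluble relative calreticulin (Calr) bind and release in cycles until the protein is folded. PDIA3, the oxidoreductase that docks on both lectins, makes and swaps disulfide bonds in their clients. Male germ cells also make calmegin (Clgn), the testis relative of calnexin, calsperin (Calr3), the testis relative of calreticulin, and PDILT, an isomerase-like protein that lacks the usual catalytic cysteine pair and binds calmegin. Mice lacking Clgn, Calr3 or Pdilt make sperm that lack mature ADAM3 and neither pass the junction of uterus and oviduct nor bind the egg coat.

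The windows just upstream of the RefSeq transcription starts are shown because the germ cell genes and their counterparts share protein families but differed in their levels between the groups. RefSeq (GRCm38.p6) gave a window of 250 bases for 5 of the 6 genes, and none for Clgn. Each is written 5′ to 3′ on the gene's own strand, and capitals mark the CCAAT box, the cyclic AMP response element core TGACG and the ER stress response element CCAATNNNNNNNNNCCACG, on either strand. The last of these contains a CCAAT box. Calr3 lies at chr8:72443779-72444028, Pdilt at chr7:119523483-119523732, Calr at chr8:84846932-84847181 and Canx at chr11:50325674-50325923, all on the minus strand.
Calr3: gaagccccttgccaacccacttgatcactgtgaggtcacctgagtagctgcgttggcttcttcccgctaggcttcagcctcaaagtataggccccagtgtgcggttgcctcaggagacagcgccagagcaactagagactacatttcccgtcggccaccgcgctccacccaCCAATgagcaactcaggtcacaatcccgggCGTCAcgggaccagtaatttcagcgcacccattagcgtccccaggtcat
Pdilt: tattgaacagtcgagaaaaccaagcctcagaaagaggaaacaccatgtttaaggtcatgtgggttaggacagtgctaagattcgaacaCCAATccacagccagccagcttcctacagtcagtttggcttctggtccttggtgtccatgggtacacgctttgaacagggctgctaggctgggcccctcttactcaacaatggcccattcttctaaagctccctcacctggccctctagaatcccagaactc
Calr: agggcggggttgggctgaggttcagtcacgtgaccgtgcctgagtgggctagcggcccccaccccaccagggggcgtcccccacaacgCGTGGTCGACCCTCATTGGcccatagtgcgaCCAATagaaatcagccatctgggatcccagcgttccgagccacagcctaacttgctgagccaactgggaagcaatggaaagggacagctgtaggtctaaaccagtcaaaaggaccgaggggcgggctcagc
Canx: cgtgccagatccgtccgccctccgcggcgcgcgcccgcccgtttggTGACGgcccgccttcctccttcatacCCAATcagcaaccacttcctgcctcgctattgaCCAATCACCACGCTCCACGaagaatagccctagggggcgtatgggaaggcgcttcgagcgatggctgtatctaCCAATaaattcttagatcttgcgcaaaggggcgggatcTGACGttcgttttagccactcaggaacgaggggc
The full ER stress response element, the site through which ATF6 acts on chaperone genes, was found once in the Calr window and once in the Canx window, 143 and 126 bases from the start. It occurred in 37 of 32851 windows of the same length (0.113%). The windows of Calr3 and Pdilt held no match to these letters, nor did that of Pdia3 at chr2:121413652-121413901 on the plus strand. CCAAT occurred in all 5 windows and in 33.8% of all windows. TGACG was found in the windows of Calr3, Canx and Pdia3 and in 17.8% of all windows. A second RefSeq start of Calr3, at chr8:72435157-72435406, also held CCAAT and no ER stress response element. A match is a description of letters and was not tested for binding.

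The targeted gene was read first as a check of the labels. Rnf17 had 214 and 393 counts per 1000000 (CPM) in homozygous IP libraries 1 and 2, against 1263 and 1189 CPM in heterozygous IP libraries, and 50.3 and 97.7 CPM in homozygous testes, against 507 and 551 CPM in heterozygous testes. All CPM values share 1 scale, set by trimmed means over the 8 libraries. The homozygous libraries were lower without overlap, and none was at 0. Gene reads ranged from 5661754 to 50575649 per library, so 1 CPM stood for 5.29 to 53.4 reads. Over 14180 genes, the log2 CPM of the replicates correlated at 0.961 in homozygous IP, 0.979 in heterozygous IP, 0.927 in homozygous testes and 0.877 in heterozygous testes, the last group being the least alike. Homozygous testis library 2 held 2509 reads of Crisp1 and 1195 of Adam7, both markers of the epididymis, against 1 and 0 reads in homozygous testis library 1 and at most 1 read of either in heterozygous testes. The listed epididymis markers Lcn5, Lcn8, Lcn9, Defb20 and Rnase9 averaged at most 0.925 CPM in homozygous testes. Cst8, also listed, averaged 5.50 CPM there, against 44.0 CPM in heterozygous testes. The source of the Crisp1 and Adam7 reads was not tested.

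Per kilobase of the longest coding transcript, Clgn was the most abundant of the 6 genes in every group. In heterozygous testes, Clgn averaged 909 ± 143 CPM per kb, Calr 539 ± 2.87, Pdia3 277 ± 73.7, Canx 165 ± 39.0, Calr3 64.6 ± 41.7 and Pdilt 47.0 ± 27.3 CPM per kb (SD, n = 2). In homozygous IP the per-kilobase level of Clgn reached 1119 ± 338 CPM per kb, against 406 ± 64.4 in heterozygous IP (SD, n = 2 each). Calr3 and Pdilt were the lowest of the 6 per unit length in every group. They also varied most: across the 8 libraries the highest CPM was 27.9 times the lowest for Calr3, 6.40 times for Pdilt and 3.76 times for Clgn, against 3.01 for Calr, 2.16 for Canx and 2.10 for Pdia3.

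**Figure D1:**
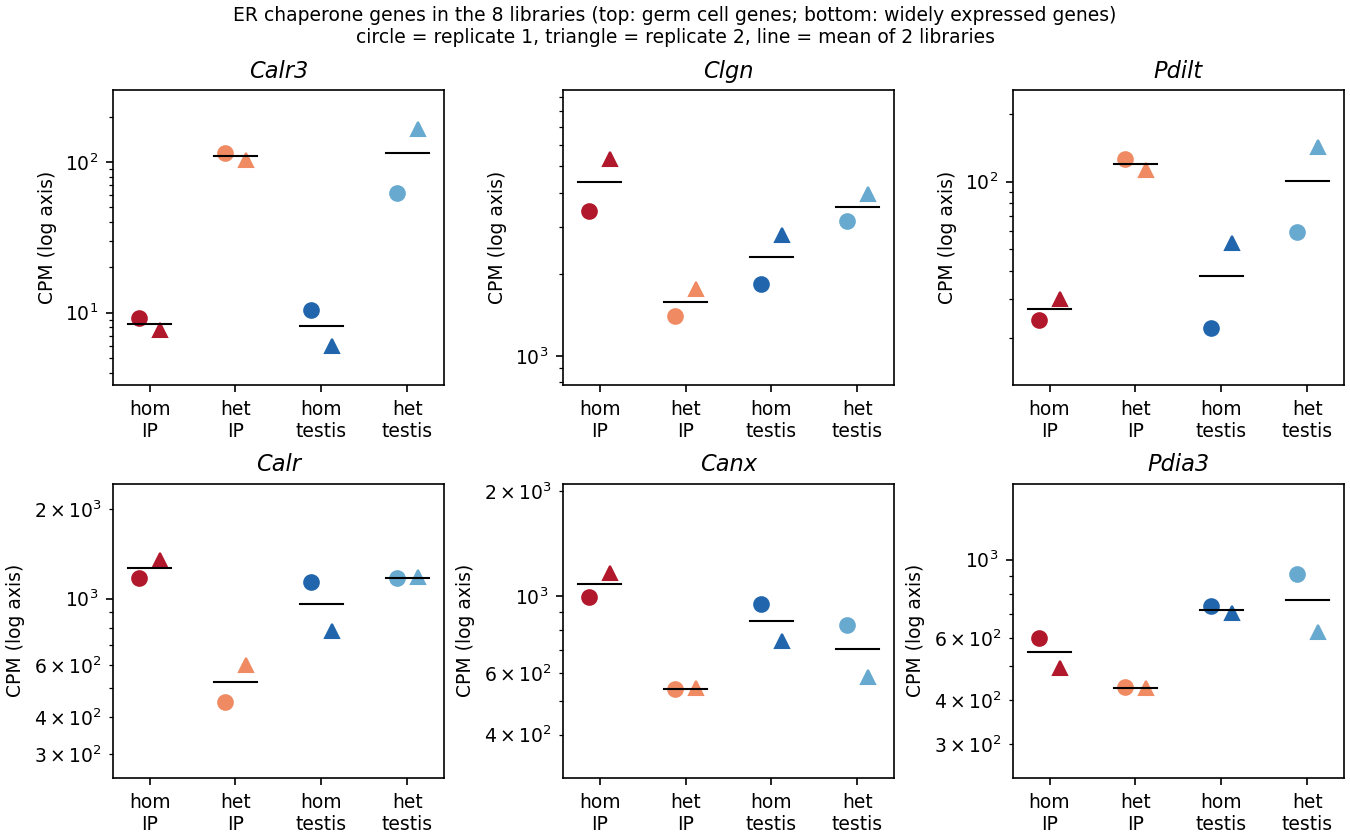
CPM (log axis) of the 6 chaperone genes in each of the 8 libraries, by group from left to right homozygous IP, heterozygous IP, homozygous testis and heterozygous testis; circles are replicate 1, triangles replicate 2 and lines group means. Calr3 sat between 5.97 and 10.5 CPM in all 4 homozygous libraries and between 62.0 and 166 CPM in all 4 heterozygous ones.

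Calr3, the germ cell relative of calreticulin, had 9.27 and 7.67 CPM in homozygous IP libraries 1 and 2, against 116 and 103 CPM in heterozygous IP libraries. Its level was 10.5 and 5.97 CPM in homozygous testes, against 62.0 and 166 CPM in heterozygous testes. All 4 homozygous libraries lay below all 4 heterozygous ones, whether testis or IP. Within a genotype the IP and testis values of Calr3 overlapped, so the order of its levels followed genotype.

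Clgn, the membrane-bound germ cell lectin, had 3433 and 5301 CPM in homozygous IP, against 1408 and 1763 CPM in heterozygous IP. In testes it had 1844 and 2792 CPM in homozygous animals, against 3151 and 3942 CPM in heterozygous ones. The order was therefore homozygous IP and heterozygous testis, whose values overlapped, then homozygous testis, then heterozygous IP, each of these without overlap. Clgn was the only one of the 3 germ cell genes whose homozygous values lay above the heterozygous values in IP and below them in testis; the widely expressed Calr did the same.

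Pdilt, the germ cell isomerase-like gene, had 24.0 and 30.0 CPM in homozygous IP, against 126 and 113 CPM in heterozygous IP, and 22.2 and 53.2 CPM in homozygous testes, against 59.5 and 142 CPM in heterozygous testes. As for Calr3, the order followed genotype, and IP and testis overlapped within each genotype. In the Pdilt transcript, 8.67% of the 36-base words also occur in Acsm5 or Gm37518, which overlap it on the other strand. Acsm5 itself reached at most 1.52 CPM in any library.

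Calr had 1174 and 1353 CPM in homozygous IP, against 449.7 and 601 CPM in heterozygous IP, and 1137 and 777 CPM in homozygous testes, against 1173 and 1182 CPM in heterozygous testes. Canx had 991 and 1166 CPM in homozygous IP, against 540.5 and 543 CPM in heterozygous IP, and 946 and 744 CPM in homozygous testes, against 823 and 587 CPM in heterozygous testes. For both lectins heterozygous IP was the lowest group, without overlap, and homozygous IP lay above homozygous testis. Homozygous IP and heterozygous testis overlapped for Calr, and the testis groups overlapped for Canx. Pdia3 had 598 and 493 CPM in homozygous IP, against 435 and 433 CPM in heterozygous IP, and 738 and 705 CPM in homozygous testes, against 912 and 623 CPM in heterozygous testes. Its testis groups overlapped and both lay above both IP groups. Exons of Pdia3 overlap those of Catsper2 on the other strand, and the sources used here do not say whether the counting used strand. Catsper2 had 841 and 961 CPM in homozygous IP, against 458 and 651 CPM in heterozygous IP.

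In whole testes the question was how the germ cell chaperones stood in homozygous animals. Calr3 averaged 8.21 ± 3.18 CPM in homozygous testes and 114 ± 73.8 CPM in heterozygous testes (SD, n = 2 each), a log2 fold change of -3.81 (SE 0.74), which missed the threshold of 0.05 in edgeR's quasi-likelihood test (Benjamini-Hochberg adjusted p = 0.133). DESeq2's Wald test gave -3.81 (adjusted p = 7.94e-06). The authors' deposited table lists Calr3 at -2.76 (adjusted p = 3.55e-05), the only one of the 6 genes among its 734 genes. The authors' mean normalised counts of Calr3 were 119 in homozygous and 1688 in heterozygous testes, a larger difference on the log2 scale than their listed value. By edgeR 0 of 14332 genes (0%) passed in testis, with 1453 (10.1%) at an unadjusted p under 0.05, Calr3 among them. DESeq2 called 715 of the 14347 genes to which it gave an adjusted p (4.98%). Of these calls 693 were lower (4.83% of the 14347). Calr3 passed edgeR's test with no filter on low counts (-3.81, adjusted p = 0.0180) and in one fit of all 8 libraries (-3.81, 0.0113). It also passed with a replicate block, where 943 genes were called, although no label makes the replicate numbers a pairing. Scaling by median ratios or by library totals called 0 genes in testis. Without heterozygous testis library 1 Calr3 stood at -4.38, and without heterozygous testis library 2 at -2.93. Without homozygous testis library 2, which held the Crisp1 and Adam7 reads, Calr3 stood at -3.41. Leaving out 1 testis library in turn gave 73 to 1273 calls over all genes, each fit taking the lone library to vary as the other group does.

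Pdilt averaged 37.7 ± 21.9 CPM in homozygous testes and 101 ± 58.6 CPM in heterozygous testes (SD, n = 2 each), a log2 fold change of -1.42 (SE 0.70, edgeR adjusted p = 0.568). Leaving out 1 library in turn moved this value between -2.15, without homozygous testis library 2, and -0.65. Taken by replicate number, the ratio of homozygous to heterozygous CPM was 0.374 for library 1 and 0.374 for library 2. No label states that these numbers are a pairing. Clgn averaged 2318 ± 670.3 CPM in homozygous testes and 3546 ± 559 CPM in heterozygous testes, a log2 fold change of -0.62 (SE 0.67, edgeR adjusted p = 0.817). Calr, Canx and Pdia3 had log2 fold changes of -0.30 (SE 0.59), 0.26 (SE 0.57) and -0.09 (SE 0.57), with edgeR adjusted p-values of 0.910, 0.923 and 0.979. Scaled by library totals in place of trimmed means, the values of Calr and Pdia3 turned positive, at 0.22 and 0.37, while the median of all genes stood at 0.53, against 0.04 with trimmed means. Calr3, Clgn, Pdilt and Calr lay below the heterozygous libraries without overlap, as did 19.7% of all genes tested. In bulk tissue, fewer cells of a type and less RNA per cell cannot be told apart.

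Markers of late germ cells were lower in the same libraries as Calr3. The 14 elongating spermatid markers summed to 403 to 474 CPM in homozygous testes, against 5059 to 26113 CPM in heterozygous testes, with all 14 lower and none at 0 in a group. The 15 round spermatid markers summed to 951 to 1758 CPM in homozygous testes, against 2033 to 5784 CPM in heterozygous testes. The 14 spermatocyte markers summed to 3746 to 8796 CPM in homozygous testes, against 6519 to 8940 CPM in heterozygous testes, and these ranges overlapped. The 11 Sertoli cell markers summed to 1064 to 1424 CPM in homozygous testes, against 497 to 786 CPM in heterozygous testes, and the 8 Leydig cell markers to 681 to 831 CPM, against 271 to 363 CPM, with the Leydig cell hormone gene Insl3 at 0 in every library. The part of these cell types in the values of the chaperones was not tested.

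In the RNF17 IP, 5 of the 6 genes passed the test between genotypes, beside 30.1% of the 13427 genes tested, and they moved in both directions. Calr3 and Pdilt fell in homozygous IP, beside 17.7% of all genes that fell. Clgn, Calr and Canx rose, beside 12.4% of all genes that rose. Pdia3 did not pass.

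Calr3 averaged 8.47 ± 1.13 CPM in homozygous IP and 109 ± 9.13 CPM in heterozygous IP (SD, n = 2 each), a log2 fold change of -3.77 (SE 0.24, edgeR adjusted p = 1.53e-06). Pdilt averaged 27.0 ± 4.24 CPM in homozygous IP and 120 ± 9.41 CPM in heterozygous IP, a log2 fold change of -2.23 (SE 0.22, edgeR adjusted p = 2.13e-05). Both falls were larger than the spread between replicates.

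Clgn averaged 4367 ± 1321 CPM in homozygous IP and 1586 ± 251 CPM in heterozygous IP, a log2 fold change of 1.38 (SE 0.26, edgeR adjusted p = 0.00249). Calr averaged 1263 ± 127 CPM in homozygous IP and 525 ± 107 CPM in heterozygous IP, a log2 fold change of 1.18 (SE 0.22, edgeR adjusted p = 0.00217). Canx averaged 1079 ± 123 CPM in homozygous IP and 542 ± 1.67 CPM in heterozygous IP, a log2 fold change of 0.91 (SE 0.20, edgeR adjusted p = 0.00579). Pdia3 averaged 546 ± 74.5 CPM in homozygous IP and 434 ± 1.19 CPM in heterozygous IP, a log2 fold change of 0.25 (SE 0.20, edgeR adjusted p = 0.377), which turned to -0.015 when scaled by library totals.

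These 5 calls held when each IP library was left out in turn, although the number of genes called fell to 2069 without heterozygous IP library 1, against 4042 with it. In one fit of all 8 libraries Calr3 kept its call (edgeR adjusted p = 0.0174), while Pdilt (0.0729), Calr (0.112), Clgn (0.114) and Canx (0.182) missed the threshold. Scaling by library totals kept the 5 calls and their directions, but split all calls into 832 higher and 3145 lower, against 1671 higher and 2371 lower with trimmed means. The elongating spermatid markers summed to 431 to 517 CPM in homozygous IP, against 7523 to 7698 CPM in heterozygous IP, with 14 of 14 called lower, and the spermatocyte markers to 7471 to 8565 CPM, against 5897 to 6283 CPM, with 5 of 14 called higher and 2 lower, or 3 higher and 3 lower when scaled by library totals. Their part in the fall of Calr3 and Pdilt and the rise of Clgn was not tested.

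**Figure D2:**
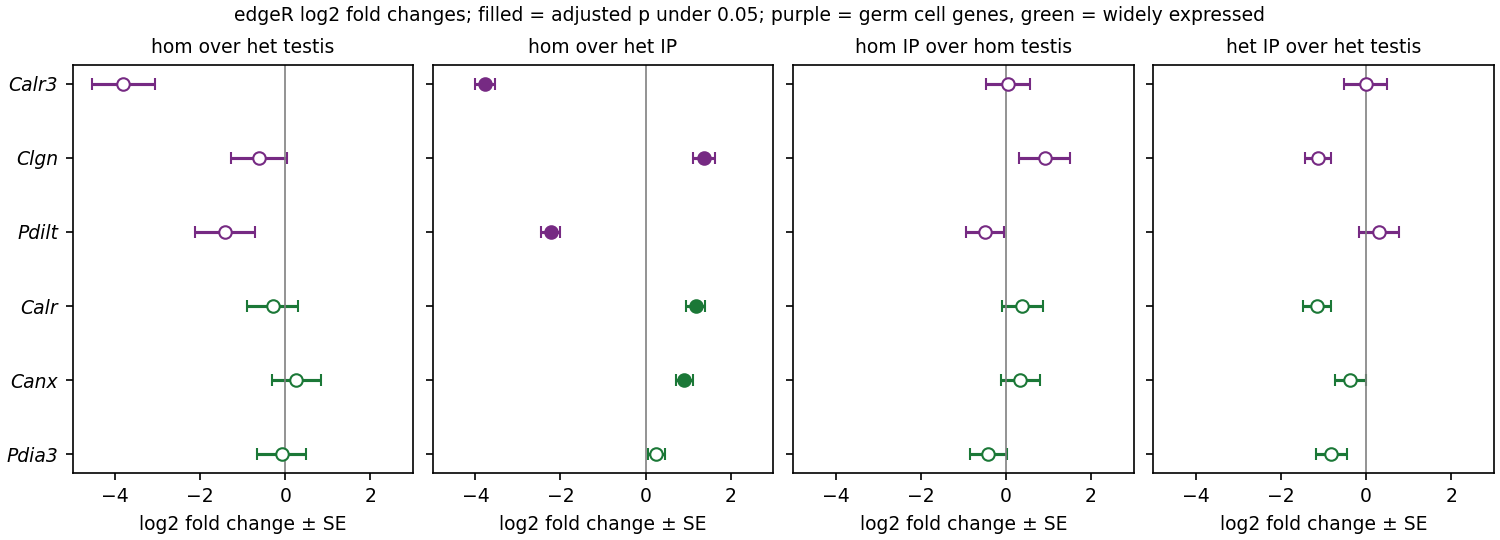
Log2 fold change of each chaperone gene for homozygous over heterozygous IP and testis and for IP over testis in each genotype. Bars are the SE worked back from edgeR's F test. Filled points passed edgeR's test at an adjusted p under 0.05. Calls appear for homozygous over heterozygous IP, where Calr3 (-3.77) and Pdilt (-2.23) lay below 0 and Clgn (1.38), Calr (1.18) and Canx (0.91) above it.

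Set against testis RNA of the same genotype, none of the 6 genes passed edgeR's test in IP. In homozygotes, Clgn had a log2 ratio of IP to testis of 0.91 (SE 0.59, edgeR adjusted p = 0.378), Calr 0.39 (SE 0.48, 0.663), Canx 0.34 (SE 0.46, 0.696), Calr3 0.05 (SE 0.52, 0.969), Pdia3 -0.41 (SE 0.43, 0.600) and Pdilt -0.49 (SE 0.46, 0.554). In heterozygotes, Pdilt had a log2 ratio of 0.30 (SE 0.47, edgeR adjusted p = 0.753), Calr3 -0.01 (SE 0.51, 0.997), Canx -0.37 (SE 0.36, 0.596), Pdia3 -0.81 (SE 0.37, 0.311), Clgn -1.13 (SE 0.31, 0.225) and Calr -1.14 (SE 0.33, 0.225). In heterozygotes DESeq2 called 600 of the 12150 genes to which it gave an adjusted p (4.94%). By edgeR the test called 3.28% of 13334 genes in homozygotes and 0% of 13562 in heterozygotes, where 2460 (18.1%) had an unadjusted p under 0.05. Leaving out 1 library in turn moved these counts to 89 to 4556 in homozygotes and 11 to 7278 in heterozygotes. Rnf17 mRNA itself had a log2 ratio of 2.03 (SE 0.47, edgeR adjusted p = 0.0396) in homozygotes and 1.24 (SE 0.30, edgeR adjusted p = 0.214) in heterozygotes.

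The heterozygous ratios rested on testis libraries that differed from each other. Without heterozygous testis library 1, Clgn (-1.29, edgeR adjusted p = 8.55e-05), Calr (-1.15, 2.28e-04) and Calr3 (-0.58, 0.0365) passed as lower in IP. Without library 2, Calr3 passed in the other direction (0.77, edgeR adjusted p = 0.00829), as did Pdilt (0.96, 0.00132), while Clgn (-1.04, 6.07e-04), Calr (-1.21, 5.59e-05), Canx (-0.65, 0.0135) and Pdia3 (-1.12, 7.92e-05) passed as lower. The lone testis library is assumed in these fits to vary as the IP libraries do. Clgn and Calr thus had the same sign in both, and Calr3 and Pdilt did not. In homozygotes, Clgn passed as higher in IP without homozygous testis library 2 (1.16, edgeR adjusted p = 0.0119) and Pdilt as lower without library 1 (-0.99, 0.0242). Without library 2, Calr3 (-0.39) and Pdilt (0.20) changed sign, and neither passed.

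For 3 genes both homozygous IP libraries lay above both homozygous testis libraries and both heterozygous IP libraries lay below both heterozygous testis libraries, as did 3.39% of 14180 genes. Taken alone, 28.7% of genes lay above testis without overlap in homozygotes and 24.9% below it in heterozygotes. Scaled by library totals, the homozygous log2 ratios of Calr and Canx turned negative, at -0.11 and -0.14, as did the difference between genotypes for Canx (-0.11). The log2 ratio of IP to testis in homozygotes minus that in heterozygotes was 2.07 (SE 0.61, edgeR adjusted p = 0.360) for Clgn, 1.56 (SE 0.53, 0.405) for Calr and 0.73 (SE 0.51, 0.693) for Canx. It was 0.42 for Pdia3, 0.12 for Calr3 and -0.73 for Pdilt, with adjusted p-values of 0.830, 0.975 and 0.798. By edgeR 0 of 14180 genes (0%) passed this test, with 1373 (9.68%) at an unadjusted p under 0.05. DESeq2 called Clgn (adjusted p = 0.0231) among 248 of the 5966 genes to which it gave an adjusted p (4.16%). Without heterozygous testis library 1, edgeR called 259 genes, none of the 6 among them.

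Ratios within a library need no scaling between libraries. For every 100 reads of Calr, Calr3 had 0.790 and 0.567 reads in homozygous IP, against 25.7 and 17.1 in heterozygous IP, and 0.920 and 0.768 reads in homozygous testes, against 5.29 and 14.1 in heterozygous testes. The homozygous ratios were all under 1 and the heterozygous ones all above 5, a mean difference of -4.95 on the log2 scale in IP and -3.36 in testis. For every 100 reads of Pdia3, Pdilt had 4.02 and 6.09 reads in homozygous IP, against 29.1 and 26.1 in heterozygous IP, and 3.01 and 7.55 reads in homozygous testes, against 6.53 and 22.9 in heterozygous testes. The IP groups were apart for this pair (-2.47 on the log2 scale) and the testis groups overlapped (-1.36), with a range of -2.26 to -0.45 when 1 library was left out in turn. Against P4hb, the standard disulfide isomerase and a counterpart added after the data were seen, Pdilt had 30.0 and 45.4 reads per 100 in homozygous testes, against 147 and 165 in heterozygous testes, which did not overlap (-2.07).

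For every 100 reads of Canx, Clgn had 346 and 455 reads in homozygous IP, against 260.5 and 325 in heterozygous IP, and 195 and 375 reads in homozygous testes, against 383 and 672 in heterozygous testes. Its mean difference between genotypes was 0.45 in IP and -0.91 in testis on the log2 scale, both without overlap. Clgn exceeded Canx in reads in all 8 libraries. With 2 libraries in each group an exact permutation test cannot go below p = 0.333, so these ratios carry no test.

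**Figure D3:**
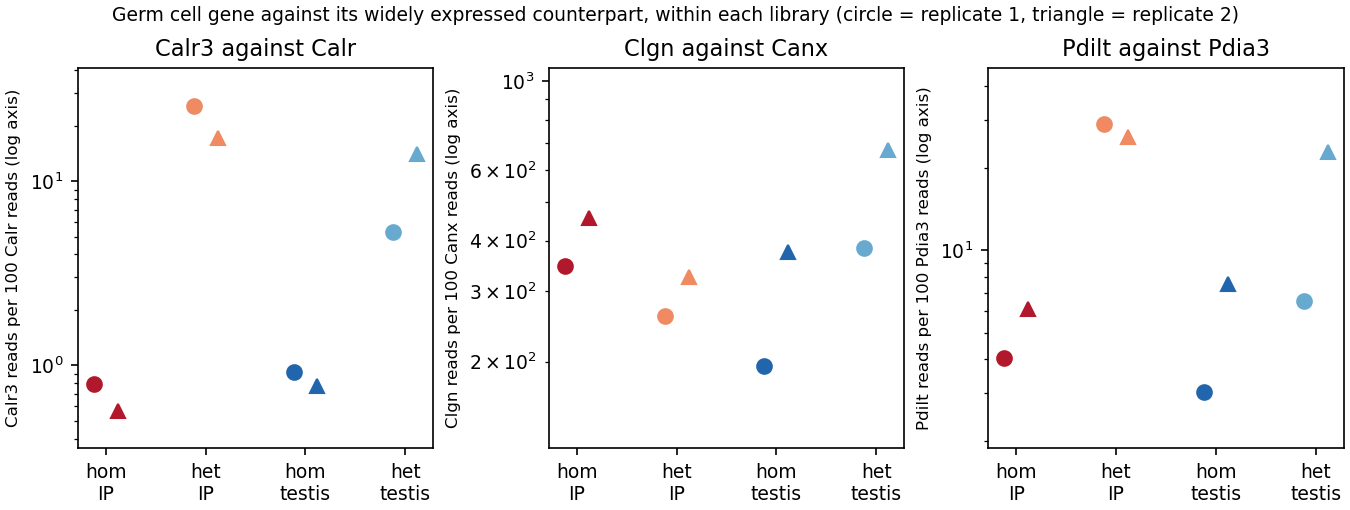
Reads of each germ cell gene per 100 reads of its widely expressed counterpart (log axis) in the 8 libraries, by group from left to right homozygous IP, heterozygous IP, homozygous testis and heterozygous testis; circles are replicate 1 and triangles replicate 2. Calr3 per 100 reads of Calr was 0.567 to 0.920 in the homozygous libraries and 5.29 to 25.7 in the heterozygous ones, while Clgn per 100 reads of Canx was 195 to 672 in all.

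The rest of the lectin cycle comprised the glucosidases, the UGGT folding sensors, cargo lectins and the disposal machinery. Of these 19 genes, 1 fell and 0 rose in homozygous IP, where 17.7% of all genes fell and 12.4% rose. The median log2 fold change was 0.12, against -0.03 over all genes. Scaled by library totals, 2 fell and 0 rose, beside 3145 of 13427 genes that fell and 832 that rose. The median was then -0.16, against -0.30 over all genes. The one that fell was Syvn1, the ubiquitin ligase of ER disposal, at 8.28 ± 0.86 CPM in homozygous IP and 22.1 ± 8.36 CPM in heterozygous IP (log2 fold change -1.51, edgeR adjusted p = 0.00530). Sel1l, the partner of Syvn1, did not pass, at 110 ± 10.4 CPM in homozygous IP and 76.4 ± 6.18 CPM in heterozygous IP (0.44, 0.114). In testis 0 of 19 passed and the median was 0.37, against 0.04 over all genes. The largest testis differences were those of Ngly1, which strips sugars from discarded proteins, at 116 ± 46.8 CPM in homozygous and 288 ± 156 CPM in heterozygous testes, and of the folding sensor Uggt1, at 119 ± 1.39 and 48.4 ± 21.6 CPM in homozygous and heterozygous testes.

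Of the protein disulfide isomerase family and its oxidases, 18 of 20 listed genes were tested, with 1 higher and 1 lower call in homozygous IP, where 12.4% of all genes were higher and 17.7% lower, and 0 in testis. The median log2 fold change was 0.11 in IP and -0.02 in testis. Scaled by library totals it was -0.16 and 0.44, against -0.30 and 0.53 over all genes. That scaling gave 0 higher and 2 lower calls in IP, beside 832 higher and 3145 lower among 13427 genes. Prdx4, an ER peroxidase that passes oxidising power to these isomerases, fell to 7.68 ± 3.32 CPM in homozygous IP, against 42.3 ± 11.6 CPM in heterozygous IP (log2 fold change -2.56, edgeR adjusted p = 1.97e-04). Txndc12 rose to 54.6 ± 2.59 CPM in homozygous IP, against 29.0 ± 0.92 CPM in heterozygous IP (0.83, 0.0139). Of the most abundant members, Tmx4 had 220 ± 49.3 CPM in homozygous IP and 274 ± 25.5 CPM in heterozygous IP (-0.40, 0.171), and the reductase Dnajc10 172 ± 4.56 CPM in homozygous IP and 139.7 ± 0.259 CPM in heterozygous IP (0.21, 0.418), and neither passed. The largest testis differences were those of Prdx4, at 10.4 ± 2.32 CPM in homozygous and 23.6 ± 0.41 CPM in heterozygous testes, and Erp29, at 81.7 ± 9.17 CPM in homozygous and 147 ± 127 CPM in heterozygous testes. Agr2 was at 0 in every library.

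Among the ER heat shock proteins and their cofactors, 7 of 19 rose in homozygous IP and 1 fell, where 12.4% of all genes rose and 17.7% fell, and the median log2 fold change was 0.21. Scaled by library totals, 3 rose and 2 fell, beside 832 of 13427 genes that rose and 3145 that fell. The median was then -0.05, against -0.30 over all genes. The one that fell under trimmed means was Creld2, named after its values were seen (-0.61, edgeR adjusted p = 0.0338). Dnajb11, a cofactor of the chaperone BiP, rose to 222 ± 45.7 CPM in homozygous IP, against 62.7 ± 12.8 CPM in heterozygous IP (1.74, edgeR adjusted p = 1.96e-04). Hsp90b1, the ER form of HSP90, rose to 4206 ± 427 CPM in homozygous IP, against 1548 ± 21.0 CPM in heterozygous IP (1.36, 8.98e-04). Hspa5, which encodes BiP, rose to 692 ± 144 CPM in homozygous IP, against 400.3 ± 51.7 CPM in heterozygous IP (0.71, 0.0306). Sec63, which brings BiP to the translocation channel, and Manf also rose, by 0.92 and 0.67 on the log2 scale (edgeR adjusted p = 0.00635 and 0.0255). In testis 0 of 19 passed. The largest downward testis differences were those of Dnajb9, a further cofactor of BiP, at 93.4 ± 11.4 CPM in homozygous and 236 ± 44.0 CPM in heterozygous testes (-1.34, edgeR adjusted p = 0.439), and of Manf, at 283 ± 105 CPM in homozygous and 541 ± 297 CPM in heterozygous testes (-0.94, 0.704). Cnpy2, named after its values were seen, differed upward by 1.01 on the log2 scale, more than Manf did downward. Its level was low, at 4.21 ± 1.08 CPM in homozygous and 2.04 ± 1.23 CPM in heterozygous testes (edgeR adjusted p = 0.707). Hspa5 stood at 1020 ± 390 CPM in homozygous and 1051 ± 548 CPM in heterozygous testes.

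Of the sensors and targets of the unfolded protein response, 12 of 14 were tested, with 1 higher and 3 lower calls in homozygous IP, where 12.4% of all genes were higher and 17.7% lower. Scaled by library totals, 1 was higher and 4 lower, beside 832 higher and 3145 lower among 13427 genes. The median log2 fold change was 0.15. It was -0.15 when scaled by library totals, against -0.30 over all genes. Creb3l4, an ER-anchored transcription factor made in spermatids, fell to 46.5 ± 3.004 CPM in homozygous IP, against 223 ± 42.7 CPM in heterozygous IP (-2.34, edgeR adjusted p = 1.51e-05). Asns, an asparagine synthase and target of ATF4, fell to 5.54 ± 0.99 CPM, against 74.0 ± 7.67 CPM (-3.83, 2.16e-06). The other two calls, named after their values were seen, were the ER disposal gene Herpud1, which fell (-2.17, 4.22e-05), and the stress kinase Eif2ak3, which rose (1.24, 0.00626). Atf6, the sensor that becomes a transcription factor under ER stress, did not pass, at 30.7 ± 2.60 CPM in homozygous IP and 44.1 ± 7.18 CPM in heterozygous IP (-0.61, 0.0680). Asns had 24.0 ± 9.93 CPM in homozygous testes and 94.0 ± 26.1 CPM in heterozygous testes (-1.98, edgeR adjusted p = 0.267). Creb3l4 had 35.4 ± 8.17 CPM in homozygous testes and 335 ± 277 CPM in heterozygous testes (-3.25, edgeR adjusted p = 0.170, DESeq2 adjusted p = 5.52e-04).

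Clients of calmegin and calsperin, other genes linked to ADAM3 on mature sperm, and the sperm gene Izumo1 formed a list of 22. Of these, 21 were tested in IP, and 9 fell and 2 rose in homozygous IP, where 17.7% of all genes fell and 12.4% rose. The median log2 fold change was -0.49 in IP and -0.81 in testis. Scaled by library totals, 11 fell and 1 rose in IP, where 3145 of 13427 genes fell and 832 rose. The list medians were then -0.77 in IP and -0.28 in testis, against -0.30 and 0.53 over all genes. Adam3 itself, the best known client, had 676 ± 49.5 CPM in homozygous IP and 568 ± 4.20 CPM in heterozygous IP (0.17, edgeR adjusted p = 0.550), and 587 ± 377 CPM in homozygous testes and 1094 ± 491 CPM in heterozygous testes (-0.90, 0.752). Adam5 likewise did not pass, at 726 ± 30.0 CPM in homozygous IP and 570 ± 4.67 CPM in heterozygous IP. Ace, whose testis form is needed for ADAM3 on sperm, fell to 23.3 ± 3.45 CPM in homozygous IP, against 221 ± 31.4 CPM in heterozygous IP (-3.33, 1.99e-06). Prss37, a sperm protein of the trypsin family, fell to 2 and 4 reads in homozygous IP (0.523 ± 0.204 CPM), against 866 and 261 reads in heterozygous IP (61.2 ± 28.1 CPM, edgeR adjusted p = 2.52e-06). Adam6a fell to 4.30 ± 1.00 CPM, against 35.3 ± 4.39 CPM (-3.11, 1.95e-05). The pair that rose, named after their values were seen, were Tex101 (1.62, 4.70e-04) and Adam1b (0.69, 0.0219). Dpep3, a dipeptidase that binds TEX101, was higher in homozygous IP than in homozygous testes, at 82.8 ± 4.68 and 26.6 ± 4.36 CPM (1.63, edgeR adjusted p = 0.0379), and had 69.8 ± 1.23 CPM in heterozygous IP and 26.6 ± 12.2 CPM in heterozygous testes (1.44, 0.233). In testis Prss37 had 2.27 ± 0.81 CPM in homozygous and 54.2 ± 45.2 CPM in heterozygous animals, and Adam4 3.32 ± 0.52 and 77.0 ± 79.6 CPM in homozygous and heterozygous animals. By edgeR 0 of 21 passed in testis, and DESeq2 called 4 of them lower, where it called 4.83% of 14347 genes lower. The elongating spermatid markers were lower in the same libraries, and their part in the falls was not tested.

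**Figure D4:**
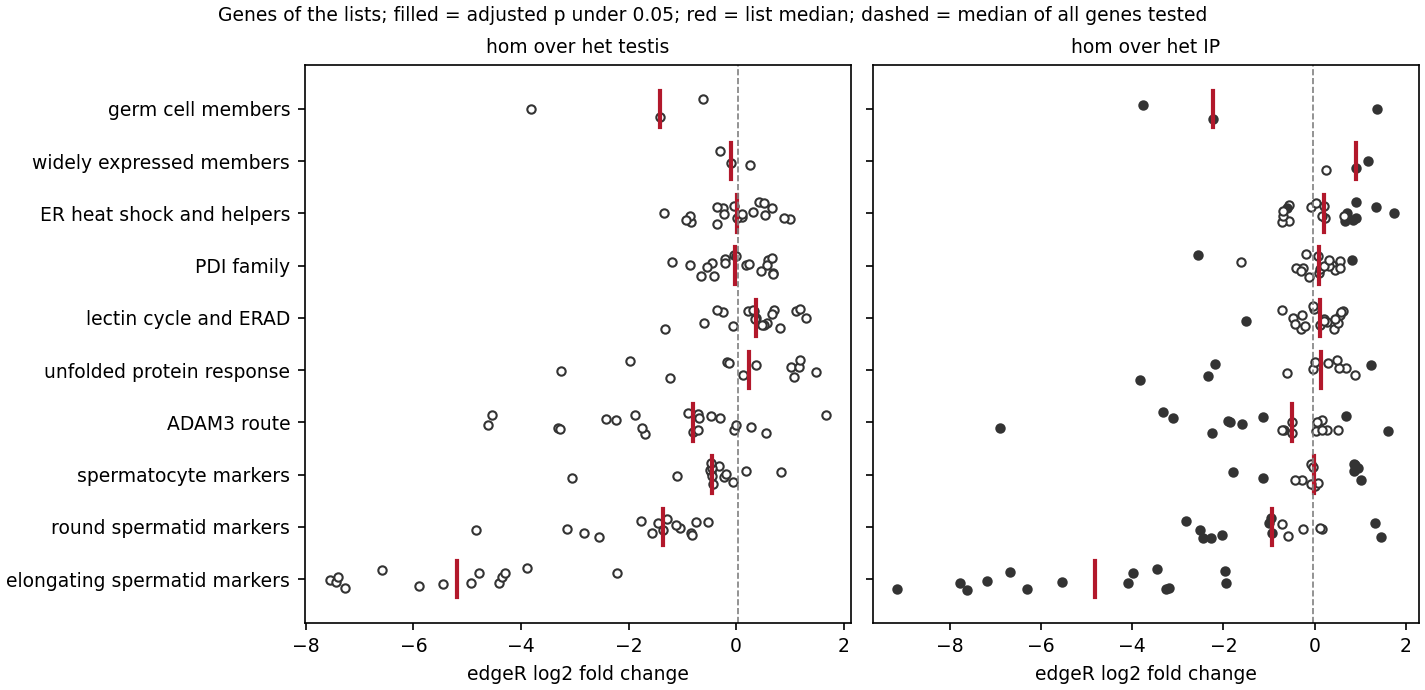
Log2 fold changes of homozygous over heterozygous libraries for each gene of the lists, in testis (left panel) and IP (right panel); filled points passed edgeR's test, red bars are list medians and dashed lines the medians of all genes tested. In IP the elongating spermatid list had a median of -4.81 and the list of ADAM3-related genes -0.49. The lectin cycle (0.12), disulfide isomerase (0.11) and ER heat shock (0.21) lists lay near 0. Scaled by library totals, the medians of the lectin cycle, isomerase and heat shock lists turned to -0.16, -0.16 and -0.05. The median of all genes then stood at -0.30.

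Over the 8 libraries and 9057 genes whose mean log2 CPM reached 3, the genes whose log2 CPM followed Calr3 most closely were Luzp1 and Prm1 (Pearson r = 0.997 each) and Dcun1d1 (0.995). Prm1, a protamine of the sperm nucleus, had 4.92 and 2.84 CPM in homozygous IP, against 851 and 748 CPM in heterozygous IP, and 7.41 and 3.46 CPM in homozygous testes, against 305 and 1714 CPM in heterozygous testes. For Pdilt they were Mipep (0.984), Pdzk1 (0.980) and the sperm calcium channel gene Catsper3 (0.979). For Clgn they were Commd1 (0.981), Shisa3 (0.976) and Ndufaf4 (0.975). Commd1 had 108 and 144 CPM in homozygous IP, against 34.5 and 44.5 CPM in heterozygous IP, and 55.8 and 87.6 CPM in homozygous testes, against 85.2 and 133 CPM in heterozygous testes, the same order of group means as Clgn, although its testis groups overlapped. Among the 6 genes, the pair Calr3 and Pdilt had r = 0.879 and the pair Clgn and Calr 0.808. The points share their libraries and group structure, so these values describe likeness and carry no test.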

How the data were processed

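Counts were used as deposited by the authors, as whole numbers of reads per gene. Per the submitters' processing notes, STAR and DESeq were used with mm9; the sources used here give no version, annotation or strand setting. Groups and replicate numbers came from the sample titles. The 4 testis columns that occur in 2 gene tables held identical values and were used once. A further table, deposited by the authors, gives their own log2 fold changes, standard errors (a score here), normalised counts (a signal per gene) and adjusted p-values for testis, and these are quoted as theirs. Per the labels' protocols, the cDNA was primed with not-so-random primers, which avoid ribosomal RNA.

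Counts were tested with edgeR 4.0.16 (R 4.3.3, limma 3.58.1): trimmed-mean scaling, filterByExpr, quasi-likelihood F tests and Benjamini-Hochberg adjustment over all genes tested, called at an adjusted p under 0.05. Each fit used the 4 libraries of its comparison, and the difference between genotypes in the IP to testis ratio used all 8. Each SE of an edgeR log2 fold change was worked back from its test, as the absolute log2 fold change over the square root of F. Alternatives were DESeq2 1.42.0, median-ratio scaling, library totals, no filter on low counts, a replicate block, one fit of all 8 libraries and leaving out each library. The fits were run on simulated data as a check of the code. Recovery of changed genes was required there only at a spread set low, and not at the observed spread. CPM values used 1 scale over all 8 libraries, and log2 CPM a prior count of 2. Intervals and adjusted p-values cover the spread between libraries, which held 5661754 to 50575649 gene reads.

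The 6 genes and all gene lists were chosen with earlier results of these data known. Besides the 6 genes and Rnf17, genes were named by rule: from each list the 2 with the highest mean, the 2 with the largest difference between testis groups, and, for the ER lists, except that of the unfolded protein response, up to 3 with the smallest adjusted p in an IP comparison. The ranking by testis difference took no gene whose log2 CPM averaged under 3 in testis, which left out Cnpy2. Cell type markers are given as sums. Lengths, shared 36-base words and exon overlaps came from a mouse annotation of a later build than mm9, so no coordinates of genes are given from the files. Transposon and small-RNA entries were not used here.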

Additional observations from a re-analysis of the deposited data

Results flagged for a closer look

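For 3 of the 6 genes, IP lay above testis in homozygotes and below it in heterozygotes, each without overlap. The same held for 3.39% of 14180 genes. Scaled by library totals, the homozygous log2 ratios of Calr and Canx turned negative. For Clgn, calmegin, both homozygous IP libraries lay above both homozygous testis libraries and both heterozygous IP libraries lay below both heterozygous testis libraries. The homozygous log2 ratio minus the heterozygous one was 2.07 (SE 0.61), which did not pass edgeR's quasi-likelihood test of the difference (adjusted p = 0.360) and passed DESeq2's (adjusted p = 0.0231). For Calr the difference was 1.56 (edgeR adjusted p = 0.405), and for Canx 0.73 (0.693), which turned to -0.11 under scaling by library totals. The ratios behind the difference for Clgn were 0.91 in homozygotes and -1.13 in heterozygotes.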

How the results depend on the processing

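With 2 libraries per group, these data cannot separate small differences of Canx, Pdia3 or Calr in testis from the spread between libraries, and heterozygous testis libraries 1 and 2 were the least alike. Depth was not limiting for the 6 genes, the lowest of which, Calr3, had 46 reads or more in every library.

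DESeq2 called 715 genes in testis, among them Calr3 (-3.81), 600 for heterozygous IP over testis, 1319 for homozygous IP over testis and 248 for the difference of the 2 ratios, among them Clgn (2.10). With no filter on low counts the calls were 361 in testis, with Calr3 at -3.81, 1 for heterozygous IP over testis and 1469 for homozygous IP over testis. One fit of all 8 libraries called 655 genes in testis, with Calr3 at -3.81, 487 in IP, 3 for heterozygous IP over testis and 51 for homozygous IP over testis, and there Clgn (1.46), Pdilt (-2.15), Calr (1.27) and Canx (0.99) missed the threshold in IP. Library totals, a scaling added after the data were seen, put the median of all genes at 0.53 in testis, -0.30 in IP, 0.32 and -0.46 for IP over testis in heterozygotes and homozygotes, and -0.87 for their difference. It turned Calr (0.22) and Pdia3 (0.37) in testis, Pdia3 in IP (-0.015), Calr3 in heterozygous IP over testis (0.41), Calr3 (-0.44), Calr (-0.11) and Canx (-0.14) in homozygous IP over testis, and Calr3 (-0.85), Canx (-0.11) and Pdia3 (-0.38) in the difference, with 1124 calls for homozygous IP over testis and 10 for the difference. Set against P4hb in place of Pdia3, also added later, the Pdilt ratio was -2.80 in IP, -2.07 in testis and 0.10 for heterozygous IP over testis. Causes were not tested.

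No label ties the replicate numbers to a batch or animal, and they were not taken as a pairing. Deviations of same-numbered libraries correlated at 0.588 in testis, 0.041 in IP, 0.061 for heterozygous and -0.119 for homozygous IP and testis. In testis, same-numbered libraries thus shared part of their deviation, and library 2 was the deeper one in both genotypes. With a replicate block, Calr3 passed in testis (-3.71, edgeR adjusted p = 0.00680) and the calls were 943 in testis, 4525 in IP, 194 for heterozygous and 1010 for homozygous IP over testis. The block also turned Calr3 to 0.12 for heterozygous IP over testis. Crossing the numbers for homozygous IP and testis gave 1787 calls.

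Leaving out 1 library in turn gave 73 to 1273 calls in testis, 2069 to 5414 in IP, 11 to 7278 for heterozygous IP over testis, 89 to 4556 for homozygous IP over testis and 0 to 259 for the difference. In testis Calr3 ranged from -4.38 to -2.93, Pdilt from -2.15 to -0.65 and Pdia3 from -0.34 to 0.18. For heterozygous IP over testis Calr3 ranged from -0.58 to 0.77, Clgn from -1.30 to -0.98, Pdilt from -0.22 to 0.96, Calr from -1.36 to -0.95, Canx from -0.65 to -0.093 and Pdia3 from -1.12 to -0.50. For homozygous IP over testis Calr3 ranged from -0.39 to 0.49, Clgn from 0.57 to 1.20 and Pdilt from -0.99 to 0.20, and Calr3 from -0.75 to 0.69 in the difference. The Calr3 to Calr ratio ranged from -4.06 to -2.65 in testis and -2.30 to -0.89 in the difference. The Clgn to Canx ratio ranged from -1.21 to -0.40 for heterozygous IP over testis and 0.88 to 1.83 in the difference. The Pdilt to Pdia3 ratio ranged from -2.26 to -0.45 in testis, -2.77 to -2.18 in IP, 0.27 to 2.08 for heterozygous IP over testis and -2.02 to -0.22 in the difference.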

Other observations

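Calr4, a further calreticulin family member that was not among the 6 genes, was chosen after its values were seen. It averaged 33.7 ± 7.54 CPM in homozygous IP and 13.2 ± 3.30 CPM in heterozygous IP (SD, n = 2 each), a log2 fold change of 1.28 (edgeR adjusted p = 0.00556). In testis it averaged 31.7 ± 16.4 CPM in homozygous animals and 22.1 ± 1.27 CPM in heterozygous animals (0.51, edgeR adjusted p = 0.831). Of the 8 epididymis markers, Cst8 made up most of the sum in IP, at 8.70 and 5.17 CPM in homozygous IP, against 73.7 and 104.7 CPM in heterozygous IP, and 6 of the 8 were at 0 in homozygous IP and 4 in heterozygous IP. In testes Cst8 had 4.06 and 6.94 CPM in homozygous animals, against 19.2 and 68.9 CPM in heterozygous ones. Crisp1 and Adam7 went the other way there, through 1 library, at 46.9 and 22.4 CPM in homozygous testis library 2 and at most 0.17 CPM in the other 3 testis libraries.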
